A study of Mus musculus with 6 samples.

Results

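The IGF-binding proteins are a small family of secreted proteins that hold the insulin-like growth factors IGF-I and IGF-II. The classical members, encoded by Igfbp1 to Igfbp6, bind IGFs with high affinity. They keep the growth factors away from the IGF-I receptor or carry them to it, until proteases cut the binding protein and free its ligand. Igfbp7 encodes a relative with low affinity for IGFs, and Igfals encodes the acid-labile subunit, which joins IGF and IGFBP-3 or IGFBP-5 in a large complex in blood and is made mainly by liver. In teeth and bone, several of these proteins are made by mesenchymal cells and kept in the matrix. The 8 genes were taken by name from the deposited count table of 25700 genes, and all 8 were present.

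RNA came from the proximal region of the incisor, the end where the continuously growing mouse tooth keeps its stem cells, in C57BL/6 mice aged 5 weeks. The 3 conditional knockout (cKO) mice were Gli1-CreERT2;Runx2fl/fl, and the 3 control mice were Runx2fl/fl without Cre. The labels give the same tamoxifen course for every mouse, injected on 3 consecutive days when the mice were 1 month old at 1.5 mg per 10 g body weight, and the incisors were collected 1 week later. The Cre is driven from Gli1, so deletion of Runx2, a transcription factor of bone and tooth mesenchyme, can begin only in Gli1-expressing cells. Controls lack the Cre allele, so Runx2 loss and an effect of that allele cannot be told apart. The comparison asked how the binding proteins differed in abundance and direction when Runx2 was deleted.

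Estimated counts added up to between 62415177 and 66366749 in the cKO libraries and between 53525185 and 66694240 in the control libraries. Runx2 measured 62.6, 54.0 and 49.0 CPM (counts-per-million) in the cKO mice, against 79.7, 77.7 and 81.2 CPM in the controls. Its log2 fold change of -0.53 did not pass by edgeR (adjusted p = 0.0714) and passed by DESeq2 (adjusted p = 0.000132). Gli1 measured 75.0, 77.9 and 70.6 CPM in the cKO mice, against 159, 89.7 and 207 CPM in the controls. Its log2 fold change was -1.03 (edgeR adjusted p = 0.131, DESeq2 adjusted p = 0.00150), and the cause was not tested. All 8 markers of dental mesenchyme were detected, with a summed level of 753 to 815 CPM in the cKO mice and 611 to 690 CPM in the controls. The sample titles name the tissue dental mesenchyme, but enamel cells were present as well. The 4 secretory ameloblast markers summed to between 22163 and 46682 CPM in the cKO mice and between 60042 and 79541 CPM in the controls. In such mixed tissue, fewer cells of a type and less RNA per cell cannot be told apart. Control 1 was the male mouse, with 4059 counts of the Y-linked gene Ddx3y, against at most 1 count in any other library. Skeletal muscle markers also summed to 173 CPM in control 1, against 11.8 to 14.2 CPM in the other libraries. Late enamel markers were high in every cKO mouse and in control 2, with summed levels of 1107 to 2624 CPM in cKO mice and of 112, 1798 and 98.4 CPM in controls 1 to 3.

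Levels were compared between members as CPM per kilobase of exon, since longer transcripts give more reads. On that scale Igfbp5 was at the top in both groups, at 429 ± 72.9 in cKO mice and 307 ± 23.3 in control mice (SD, n = 3 each). Igfbp3 followed at 334 ± 80.5 in cKO mice and 255 ± 17.7 in control mice. The order of the next pair differed between the groups. Igfbp7 stood at 193 ± 4.79 and Igfbp4 at 176 ± 23.4 CPM per kilobase in cKO mice, and their ranges overlapped. In control mice Igfbp7 stood at 152 ± 11.2 and Igfbp4 at 181 ± 13.1, with Igfbp4 above Igfbp7 in 3 of 3 mice. Igfbp2 came next, at 63.8 ± 11.1 in cKO mice and 42.1 ± 5.28 in control mice, and Igfbp6 after it, at 11.4 ± 2.75 in cKO mice and 11.6 ± 0.411 in control mice. Igfals was low, at 1.48 ± 0.396 in cKO mice and 1.62 ± 0.319 in control mice, and Igfbp1 was close to absent. The place of Igfbp5 above Igfbp3 depended on the length used: with the longest coding transcript of each gene in place of all its exons, Igfbp3 stood above Igfbp5, with Igfbp3 at 432 and Igfbp5 at 429 in cKO mice, and Igfbp3 at 329 and Igfbp5 at 307 in control mice. Igfbp4 then also stood above Igfbp7 in cKO mice, at 203 and 194. In cKO mice the ranges of Igfbp5 and Igfbp3 overlapped on the main scale, and cKO 1 had Igfbp3 above Igfbp5.

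Igfbp5 was one of the more abundant transcripts of the tissue, at place 54 of the 25452 genes with a length in cKO mice and at place 86 in control mice. Igfbp3 stood at place 75 in cKO mice and 119 in control mice, and Igfbp6 at place 4083 in cKO mice and 4082 in control mice. The summed level of all 8 members was 1244, 1223 and 1158 CPM per kilobase in the cKO mice, against 981, 943 and 928 in the controls. The sum was thus higher in every cKO mouse than in any control, and Igfbp5, Igfbp3, Igfbp4 and Igfbp7 together made up 93.0% to 94.5% of it in cKO mice and 93.5% to 94.9% in control mice. The share of Igfbp4 was 15.6%, 15.1% and 12.9% in the cKO mice, against 17.3%, 19.0% and 21.0% in the controls. Igfbp7 kept close to the same share, 16.0% ± 0.588 in cKO mice and 16.0% ± 1.10 in control mice (SD, n = 3 each).

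**Figure D1:**
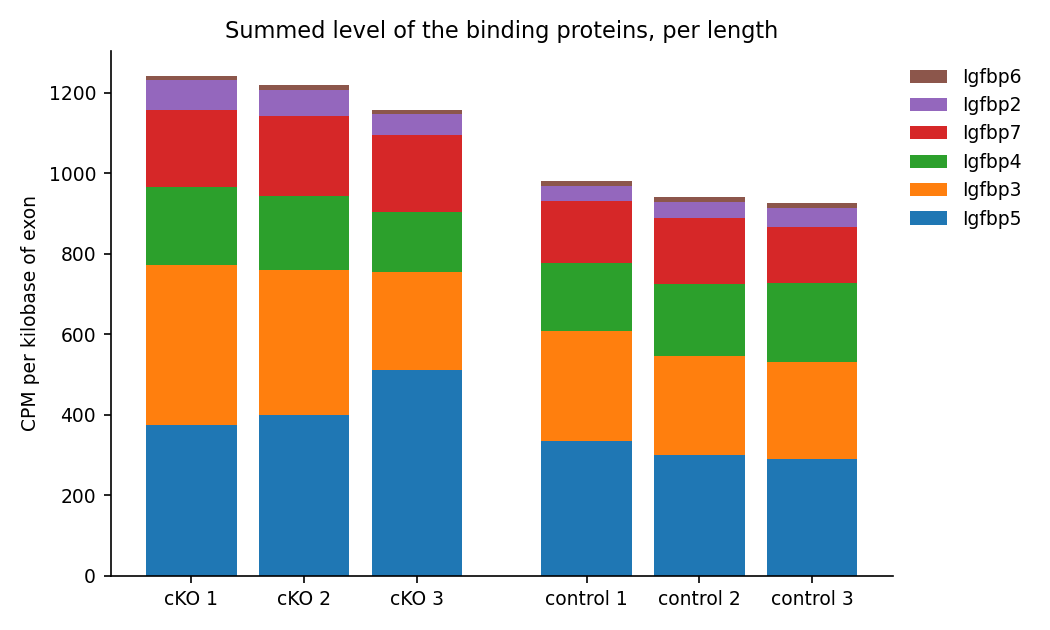
Level of the 6 more abundant binding proteins in each mouse, stacked, as CPM per kilobase of exon (vertical axis), with cKO mice at left and controls at right. The cKO bars reach about 1158 to 1244 and the control bars about 928 to 981, and the Igfbp5 segment is tallest in cKO 3.

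None of the 7 members with enough counts to test passed the threshold for a difference between the genotypes (edgeR quasi-likelihood test, adjusted p under 0.05 over 19264 genes). In that test 0.026% of all genes were called, and 3 of 7 members had an unadjusted p under 0.05, where 17.3% of all genes did. Igfbp2, Igfbp5 and Igfbp7 had levels that did not overlap between the groups, each higher in all 3 cKO mice than in all 3 controls, where 11.1% of all genes were separated in that direction. No member was separated in the other direction, as 12% of all genes were. The median log2 fold change of the 7 members was 0.34, with 4 above 0, where 50% of all genes were, and 3 below, against a median of 4.8e-05 over all genes tested. DESeq2 called Igfbp2, Igfbp5 and Igfbp7 higher, 3 members of 7, where it called 3.74% of genes higher. A limma-voom fit called 0 of the 7 members, and 0.0208% of all genes. The call for these 3 genes thus depended on the tool. The members were chosen with earlier results of these data known, so their shares are not independent of the data.

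Igfbp5 encodes a binding protein that attaches to extracellular matrix and is abundant in bone. It measured 2253, 2400.5 and 3074 CPM in the cKO mice, against 2004, 1800 and 1737 CPM in the controls. Every cKO mouse was above every control, and cKO 3 stood well above the other cKO mice. The log2 fold change was 0.48 (SE 0.14, 95% interval 0.15 to 0.81), a 1.39-fold higher level. It did not pass by edgeR (adjusted p = 0.160) and passed by DESeq2 (adjusted p = 0.00895). Over the 15 alternatives to the edgeR fit, DESeq2 among them, the adjusted p ran from 0.00895 to 0.616. In DESeq2 fits without single mice it ran from 0.00199 to 0.0848, and the call was lost without control 2 (adjusted p = 0.0720) or without control 3 (adjusted p = 0.0848).

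Igfbp2 encodes a binding protein with higher affinity for IGF-II than for IGF-I. It measured 138, 118 and 97.4 CPM in the cKO mice, against 68.7, 76.4 and 88.1 CPM in the controls. The groups did not overlap, but cKO 3 and control 3 lay close together. The log2 fold change was 0.60 (SE 0.14, 95% interval 0.27 to 0.93), a 1.51-fold higher level. It did not pass by edgeR (adjusted p = 0.110) and passed by DESeq2 (adjusted p = 0.00315), and over the 15 alternatives to the edgeR fit the adjusted p ran from 0.00315 to 0.615. DESeq2 called Igfbp2 with any of the 6 mice left out, at adjusted p from 5.45e-05 to 0.0417.

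Igfbp7, the low-affinity relative, is made by many cell types and strongly by blood vessels. It measured 230, 240 and 230 CPM in the cKO mice, against 185, 196 and 170 CPM in the controls. The cKO values were nearly equal to each other and all lay above the controls. The log2 fold change was 0.34 (SE 0.069, 95% interval 0.18 to 0.51), a 1.27-fold higher level. Igfbp7 had the lowest p of the members, at place 313 among all genes by p, and did not pass by edgeR (adjusted p = 0.0878). It passed by DESeq2 (adjusted p = 0.00139), and the 15 alternatives to the edgeR fit gave adjusted p from 0.00139 to 0.596. With any of the 6 mice left out DESeq2 called it at adjusted p from 0.000231 to 0.0301. Of its exonic bases, 7.03% lie opposite to exons of Polr2b, and the labels do not say whether the libraries kept strand.

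Igfbp3, the main carrier of IGFs in blood, was less uniform. It measured 1245, 1128 and 762 CPM in the cKO mice, against 860, 772 and 759 CPM in the controls. Mice cKO 1 and cKO 2 stood above all controls, whereas cKO 3 lay among them. The log2 fold change was 0.39 (SE 0.18, 95% interval -0.029 to 0.81), which passed neither by edgeR (adjusted p = 0.317) nor by DESeq2 (adjusted p = 0.181). Without cKO 3 it was 0.57 and DESeq2 called it higher (adjusted p = 4.14e-06), and without cKO 1 it was 0.25.

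**Figure D2:**
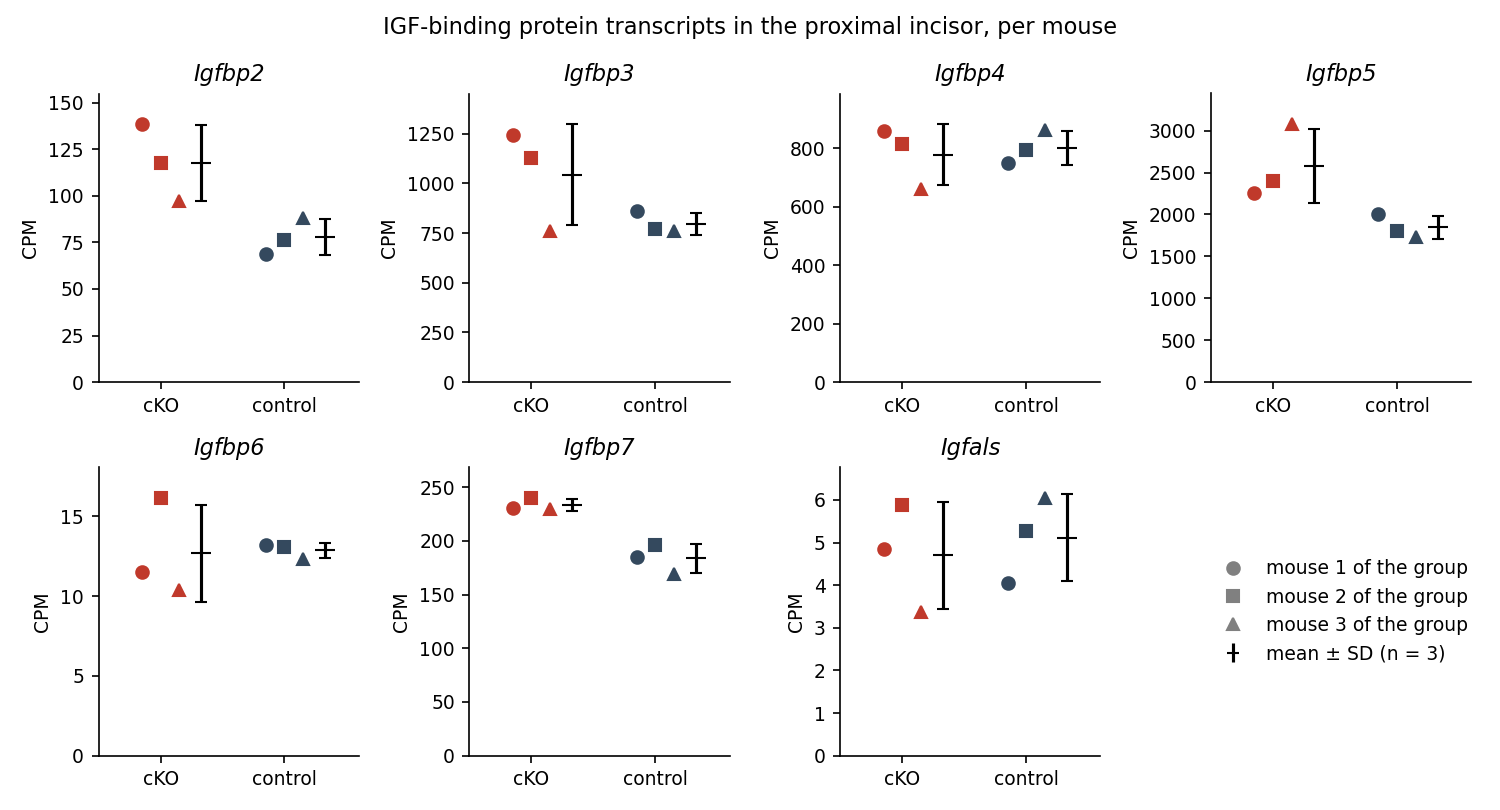
CPM of each of the 7 tested binding proteins (vertical axes, from 0) in the 3 cKO mice (red, left) and the 3 control mice (dark, right), with a symbol for each mouse and the mean ± SD beside them. The groups are apart for Igfbp2, Igfbp5 and Igfbp7, and cKO 3 (triangle) lies apart from the other cKO mice for Igfbp3 and Igfbp5.

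Igfbp4 encodes a binding protein that mostly restrains IGFs and is cut by the protease PAPP-A. It measured 858, 814 and 662 CPM in the cKO mice, against 748, 793 and 862 CPM in the controls. The groups overlapped, with cKO 1 and cKO 2 among the controls and cKO 3 below all of them. The log2 fold change was -0.042 (SE 0.12, edgeR adjusted p = 0.888), with a 95% interval of -0.32 to 0.23, and its direction turned without cKO 3 (0.062) or control 3 (0.014). Igfbp6 encodes the member that prefers IGF-II. It measured 11.5, 16.1 and 10.4 CPM in the cKO mice, against 13.2, 13.1 and 12.3 CPM in the controls. Controls were tightly grouped, and the cKO mice fell on both sides of them. Its log2 fold change was -0.023 (SE 0.16, edgeR adjusted p = 0.958), with a 95% interval of -0.41 to 0.36, and it turned without cKO 1 (0.046) or cKO 3 (0.10).

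The 2 members best known from liver were low in the incisor. Igfals measured 4.85, 5.87 and 3.38 CPM in the cKO mice, against 4.04, 5.26 and 6.05 CPM in the controls, and the groups overlapped. Its log2 fold change of -0.12 (SE 0.23, edgeR adjusted p = 0.834) had a 95% interval of -0.68 to 0.43, and it turned without cKO 3 (0.066) or control 3 (0.013). Igfbp1, a binding protein that liver makes in fasting, had 3, 3 and 2 counts in the cKO mice and 0, 4 and 1 counts in the controls. It was left out of the test for its low counts. The absence of counts in control 1 allows a level of up to 0.0558 CPM, from the 3 counts that a count of 0 leaves possible. The depth-scaled ratio of the 8 counts in cKO mice to the 5 in control mice was 1.50, with a 95% Clopper-Pearson interval of 0.431 to 5.81 that covers counting error only, so no difference was detectable at this depth. Hepatocyte markers were also near 0, with 3 of 4 listed in the table and summed levels of 0.687 to 0.976 CPM in cKO mice and 0.962 to 1.23 CPM in control mice.

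**Figure D3:**
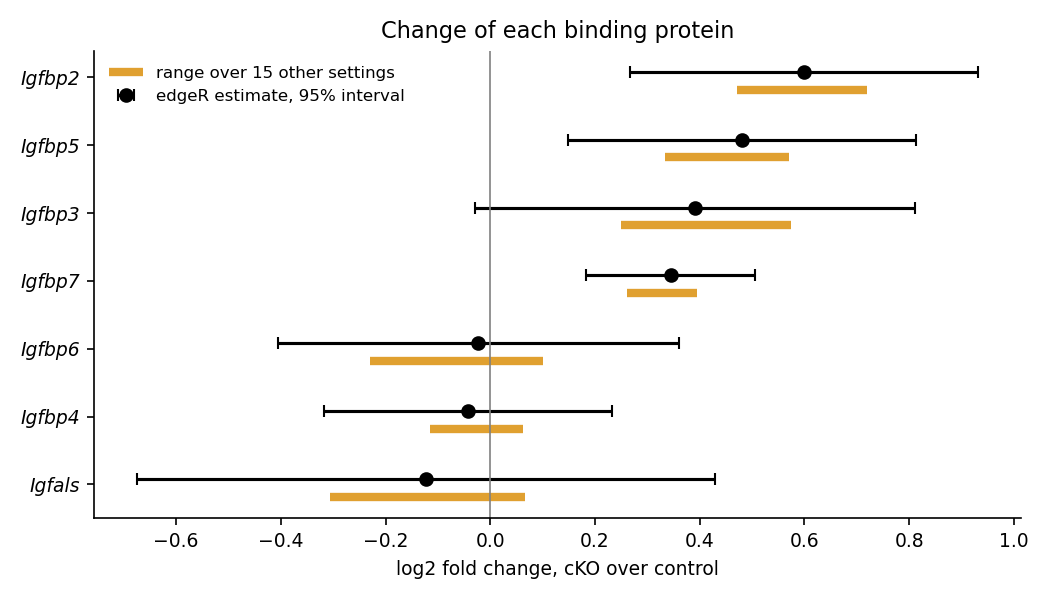
Log2 fold change of each tested binding protein, cKO over control (horizontal axis), from edgeR with its 95% interval (black) and the range over 15 other settings (orange). The intervals of Igfbp2, Igfbp5 and Igfbp7 lie above 0 before any adjustment for the number of genes, and those of Igfbp3, Igfbp4, Igfbp6 and Igfals include 0.

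The members did not move as a block from mouse to mouse. Within the cKO group Igfbp2, Igfbp3 and Igfbp4 were highest in cKO 1 and lowest in cKO 3, whereas Igfbp5 was lowest in cKO 1 and highest in cKO 3. The ratio of Igfbp5 to Igfbp3, both per kilobase, was 0.943, 1.11 and 2.10 in the cKO mice, against 1.21, 1.22 and 1.19 in the controls. The controls thus held the ratio nearly constant, and the cKO mice lay on both sides of it. The coefficient of variation of Igfbp3 was 24.1% among cKO mice and 6.94% among control mice, that of Igfbp6 was 24.2% among cKO mice and 3.55% among control mice, and that of Igfbp7 was 2.48% among cKO mice and 7.35% among control mice. With 3 mice a group these spreads are themselves imprecise, and their difference was not tested. Neutrophil markers summed to 37.0, 16.2 and 2.03 CPM in cKO 1 to 3, against 1.16 to 1.93 CPM in the controls. That order of the cKO mice was the order of Igfbp2, Igfbp3 and Igfbp4. The sums of dental epithelium, late enamel and Schwann cell markers had the same order over the cKO mice. These matches were picked out after the values were seen, and the part of any of these cell types in the levels was not tested.

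**Figure D4:**
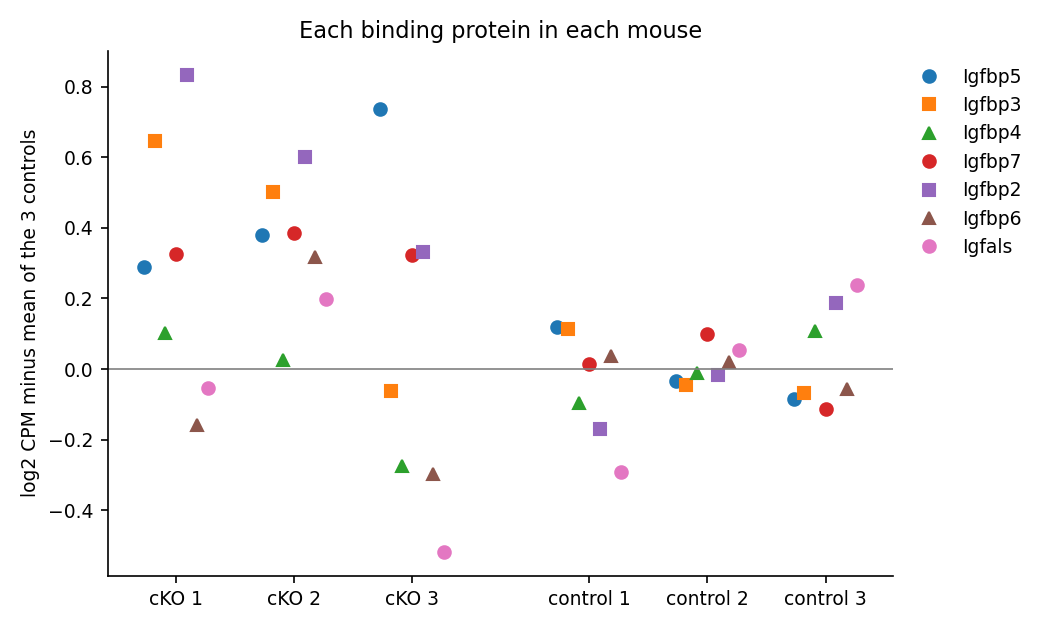
Each binding protein in each mouse, as log2 CPM minus the mean of the 3 controls (vertical axis). In cKO 3 Igfbp5 is far above the other members, while Igfbp3, Igfbp4, Igfbp6 and Igfals lie below 0.

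Markers of several cell types differed between the groups together with the 3 separated members, and their part in the differences was not tested. Over all genes tested, 50% had a fold change above 0 and edgeR called 0.026%, the shares to set beside each list here. All 7 endothelial markers had a fold change above 0 and 0 of 7 were called by edgeR. They summed to 592, 561 and 586 CPM in the cKO mice, against 494, 493 and 468 CPM in the controls. These groups were apart as they were for Igfbp7, and 11.1% of all genes were separated in that direction. Sums of macrophage, osteoblast, odontoblast, dental follicle and periodontal ligament, dental mesenchyme and neutrophil markers were also apart in that direction. The sum of secretory ameloblast markers was apart in the other. All 5 macrophage markers were likewise above 0 with 0 called, and summed to 408, 494 and 539 CPM in the cKO mice, against 363, 347 and 265 CPM in the controls. That order of the 6 mice is the order of Igfbp5. The dental mesenchyme markers had it as well. They summed to 753, 804 and 815 CPM in the cKO mice, against 690, 667 and 611 CPM in the controls. These matches in order were picked out after the values were seen. The 5 osteoblast markers summed to 27863, 20038 and 36775 CPM in the cKO mice, against 17582, 13854 and 10171 CPM in the controls, with 4 of 5 above 0 and 0 called. Most of that sum was Col1a1, which averaged 24214 CPM in cKO mice and 11419 CPM in control mice. The log2 fold changes were 1.08 for Col1a1, 1.29 for Bglap, 0.40 for Ibsp, 0.0030 for Sp7 and -0.038 for Alpl. The 4 odontoblast markers summed to 12950, 6627 and 12715 CPM in the cKO mice, against 5260, 3684 and 3021 CPM in the controls, with 4 of 4 above 0 and 0 called. Dental follicle and periodontal ligament markers, 5 of 5 above 0 and 0 called, summed to between 618 and 788 CPM in cKO mice and between 494 and 529 CPM in control mice. Pericyte and smooth muscle markers, 4 of 8 above 0 and 0 called, summed to 842, 965 and 858 CPM in the cKO mice, against 1052, 962 and 1134 CPM in the controls. Among them the contractile genes Acta2, Myh11, Cnn1 and Tagln were lower in every cKO mouse than in any control, where 12% of all genes were separated in that direction. Their log2 fold changes were -1.26, -0.79, -2.86 and -1.41 (edgeR adjusted p between 0.0610 and 0.0878). The other 4, Rgs5, Cspg4, Kcnj8 and Abcc9, had log2 fold changes of 0.0011, 0.27, 0.18 and 0.20. The contractile genes were picked out after their values were seen. With the mean level of late enamel markers as a covariate, the log2 fold changes were 0.58 for Igfbp2, 0.54 for Igfbp5 and 0.26 for Igfbp7. Without it they were 0.60, 0.48 and 0.34. None passed by edgeR with the covariate (adjusted p = 0.615, 0.616 and 0.596) or without it. With the covariate edgeR called 0 of all 19264 genes, so the lack of a call is not particular to these members.

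The genes most like Igfbp5, Igfbp2 and Igfbp3 over the 6 mice were sought by the root-mean-square difference in log2 CPM after centring each gene on its own mean. Only these 3 members varied enough for the search, with an SD of at least 0.3. Genes with predicted-gene or clone-type names were left out of the search. Igfbp5 was closest to C1qa, a complement gene of macrophages (difference 0.052), and to Iffo1 (0.069). C1qa had a log2 fold change of 0.50 and did not pass (edgeR adjusted p = 0.0934). Igfbp2 was closest to Chchd10, which encodes a mitochondrial protein (0.095), and to the ligand gene Wnt7b (0.099). Igfbp3 was closest to Cbr3, which encodes a carbonyl reductase (0.083), and to Enpep, which encodes an aminopeptidase of the angiotensin system (0.095). These are descriptions over 6 mice, in which any gene with the same split between the groups scores well.

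Some of the members also share their arrangement in the genome (build mm10). Igfbp2 (chromosome 1, 72824503 to 72852474, plus strand) and Igfbp5 (72857932 to 72874884, minus strand) point towards each other, with 5457 bases between their ends. Igfbp1 (chromosome 11, 7197782 to 7202546, plus strand) and Igfbp3 (7206086 to 7213923, minus strand) stand in the same way, with 3539 bases between them. No other gene of the table lies within either gap. In the first pair both genes were higher in every cKO mouse, although their order over the cKO mice was opposite. In the second pair, Igfbp3 averaged 1045 ± 252 CPM in cKO mice and 797 ± 55.3 CPM in control mice (SD, n = 3 each), while its neighbour had at most 4 counts in any library. The other members stand alone, Igfbp4 on chromosome 11 (99041244 to 99054392), Igfbp6 on chromosome 15 (102144362 to 102149511), Igfbp7 on chromosome 5 (77349240 to 77408041) and Igfals on chromosome 17 (24865997 to 24882010).

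Since Runx2 was the deleted factor, the promoters of the 3 separated members and of Igfbp3 are shown for the RUNX core motif TGTGGT. RefSeq promoter windows (GRCm38.p6, the same assembly as mm10) run from 250 bases before to 50 bases after a RefSeq start and were found for all 8 members. Igfbp2 had 2 windows, of which the one nearest to the gene start given above is printed, and Igfals had 3. The RefSeq starts of Igfals lay 11847 to 12750 bases downstream of the gene start given above. That of Igfbp6 lay 176 bases upstream, so those windows do not cover these gene starts. Each is printed in the gene's direction in lower case, with TGTGGT or its reverse ACCACA in capitals. They lie at chr1:72874816-72875115 (minus strand, Igfbp5), chr1:72824230-72824529 (plus, Igfbp2), chr5:77407996-77408295 (minus, Igfbp7) and chr11:7213874-7214173 (minus, Igfbp3).
Igfbp5: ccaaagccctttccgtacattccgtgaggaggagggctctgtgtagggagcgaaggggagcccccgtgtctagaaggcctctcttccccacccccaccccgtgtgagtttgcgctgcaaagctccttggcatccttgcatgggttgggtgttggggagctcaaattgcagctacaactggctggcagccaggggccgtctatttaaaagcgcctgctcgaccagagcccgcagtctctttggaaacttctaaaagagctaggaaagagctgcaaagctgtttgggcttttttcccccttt
Igfbp2: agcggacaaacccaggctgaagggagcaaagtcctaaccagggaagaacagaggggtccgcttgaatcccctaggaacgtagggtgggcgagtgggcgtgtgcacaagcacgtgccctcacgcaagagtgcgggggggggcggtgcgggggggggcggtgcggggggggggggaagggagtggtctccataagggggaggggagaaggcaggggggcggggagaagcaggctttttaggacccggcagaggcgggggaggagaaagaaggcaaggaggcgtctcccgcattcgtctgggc
Igfbp7: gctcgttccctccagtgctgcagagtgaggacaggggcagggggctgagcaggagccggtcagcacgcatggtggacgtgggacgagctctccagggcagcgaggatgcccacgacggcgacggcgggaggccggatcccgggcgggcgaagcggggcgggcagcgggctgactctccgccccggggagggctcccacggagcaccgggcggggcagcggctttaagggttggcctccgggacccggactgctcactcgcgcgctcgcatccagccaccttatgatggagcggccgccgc
Igfbp3: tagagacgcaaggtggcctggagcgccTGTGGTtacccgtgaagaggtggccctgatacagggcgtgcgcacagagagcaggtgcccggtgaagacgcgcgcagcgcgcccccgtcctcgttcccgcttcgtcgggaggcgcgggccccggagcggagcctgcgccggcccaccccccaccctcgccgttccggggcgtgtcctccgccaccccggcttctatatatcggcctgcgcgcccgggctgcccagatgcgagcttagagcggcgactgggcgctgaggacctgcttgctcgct
Of the 8 members, 1 held the motif: Igfbp3, on the gene's strand, starting at position -223 from the start base. On either strand 16.8% of all 32851 RefSeq windows hold TGTGGT or its reverse. The GC box GGGCGG, searched on both strands, occurred 3 times in the printed Igfbp2 window and 4 times in that of Igfbp7. The other Igfbp2 window held 0 and the 3 windows of Igfals held 0, 1 and 2, and 35.7% of all windows hold it. TATAAA, also on both strands, occurred in the window of Igfbp4, at position -28, and on the opposite strand in that of Igfbp6, and 13.6% of all windows hold it. The windows of Igfbp3, Igfbp7 and Igfbp4 held 37, 33 and 27 CpG pairs. The printed windows of Igfbp2 and Igfbp5 held 18 and 10, and the other Igfbp2 window held 14. Those of Igfbp1 and Igfbp6 held 8 each, and the 3 windows of Igfals held 4, 4 and 6. The median over all windows was 7 (quartiles 3 and 20). The letters were only matched in these windows, and no binding was measured.

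The binding proteins were set beside the other genes of the IGF axis, in lists also chosen with earlier results of these data known. Of 24 listed genes for ligands, receptors, signalling adaptors, mRNA-binding proteins, proteases and their inhibitors, 23 were tested and 1 rose, where edgeR called 0.026% of all genes, 13 lay above 0 and 10 below, and the median on the log2 scale was 0.065. The 1 gene was Htra1, a secreted protease that cuts IGF-binding proteins. It measured 97.9, 88.1 and 91.1 CPM in the cKO mice, against 56.6, 49.7 and 53.2 CPM in the controls (log2 fold change 0.80, SE 0.068, edgeR adjusted p = 0.0385). The call for Htra1 was lost when any mouse other than control 2 was left out (adjusted p up to 0.116) and with either covariate, while the log2 fold change was 0.75 to 0.85 without single mice, 0.84 with sex and 0.86 with late enamel genes as covariate. The ligand gene Igf1 averaged 322 ± 104 CPM in cKO mice and 369 ± 25.3 CPM in control mice, and Igf2 averaged 594 ± 73.9 CPM in cKO mice and 472 ± 80.3 CPM in control mice (SD, n = 3 each). Of the exonic bases of Igf2, 62.8% are shared with Gm49394 on the same strand, so its counts are uncertain. The receptor gene Igf1r averaged 180 ± 15.1 CPM in cKO mice and 187 ± 22.5 CPM in control mice, and none of the 3 passed (edgeR adjusted p between 0.295 and 0.815). DESeq2 called 3 genes of this list higher, namely Htra1, the PAPP-A relative Pappa2 and the stanniocalcin Stc1, an inhibitor of PAPP-A, and 1 lower, the collagenase Mmp13, where it called 3.74% of all genes higher and 3.44% lower. These 3 further names were chosen after their values were seen.

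A second list held 10 genes for proteins that carry the amino-terminal domain of the family without being among its members. Of these 9 were tested and 0 were called, 7 lay above 0, and the median on the log2 scale was 0.18. Over all genes 50% lay above 0. Before adjustment 4 of the 9 had an edgeR p under 0.05, where 17.3% of all genes did, and DESeq2 called 1 lower, where it called 3.44% of all genes lower. Igfbpl1, a secreted relative of Igfbp7, measured 8.69, 9.78 and 6.12 CPM in the cKO mice, against 10.4, 14.3 and 21.4 CPM in the controls, so all cKO mice were below the controls. The difference was -0.91 on the log2 scale (SE 0.28) and missed the edgeR threshold (adjusted p = 0.178), and Igfbpl1 was the 1 gene called by DESeq2 (adjusted p = 0.0166). Its 15 alternatives to the edgeR fit gave adjusted p from 0.0166 to 0.708. Kazald1, which encodes a secreted protein of bone-forming cells, measured 61.8, 57.8 and 67.9 CPM in the cKO mice, against 57.0, 53.8 and 54.6 CPM in the controls (log2 fold change 0.18, SE 0.069, edgeR adjusted p = 0.247).

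**Figure D5:**
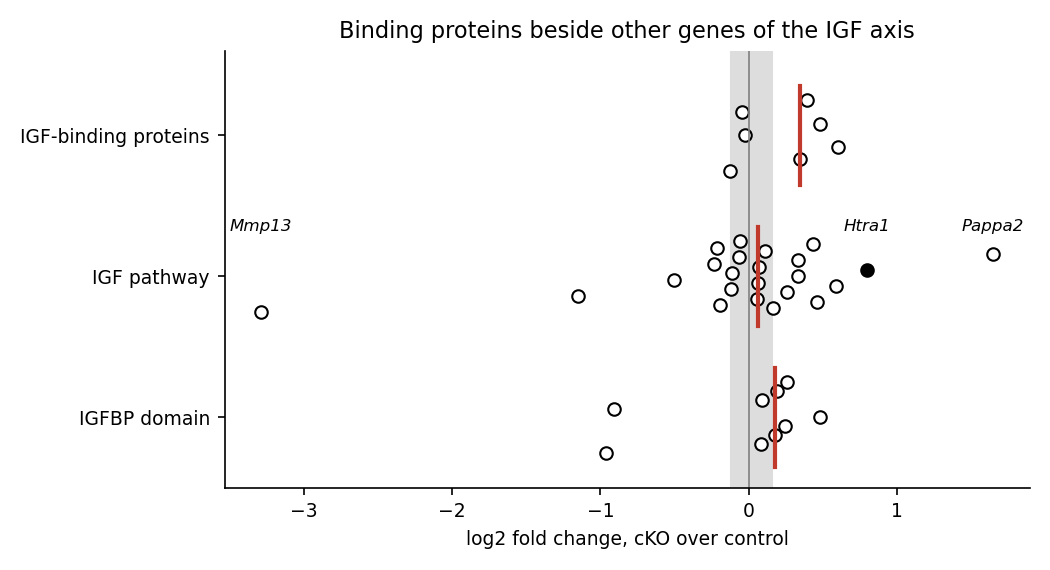
Log2 fold change, cKO over control (horizontal axis), of the 7 tested binding proteins, the 23 tested genes of the IGF pathway list and the 9 of the IGFBP-domain list, with the median of each list in red and the middle 50% of all genes tested in grey. Filled points passed by edgeR (Htra1 alone). The binding proteins have a median of 0.34, above the upper quartile of all genes at 0.16. Members and lists were chosen with earlier results of these data known.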

How the data were processed

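RNA of the proximal incisor from 6 mice was sequenced in single-end reads of 75 cycles, and RNA integrity numbers were above 9.0, per the labels' protocols. STAR 2.6.1d, Partek and the build mm10 are named in the submitters' processing notes, without an annotation, counting settings or strand. The authors' estimated counts cover 25700 genes, and 45.6% to 48.0% of a library's values were whole (tolerance 1e-09). The authors' normalized signal equalled these counts plus 1 times a library factor (100% of values within 0.1%) and was not used further.

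Estimated counts were rounded, filtered with filterByExpr (minimum count 10, minimum total 15) and TMM-scaled. A quasi-likelihood F-test in edgeR 4.0.16 (R 4.3.3), two-sided and without covariates, was the main test on 19264 genes, adjusted by Benjamini-Hochberg over all of them. SE is the fold change over the root of F, and 95% intervals are unadjusted. DESeq2 1.42.0 (unfiltered table), limma 3.58.1 voom, other scalings and filters, unrounded counts, covariates and fits without each mouse were alternatives. DESeq2 without each mouse was added after the data were seen. GENCODE M21, whose gene bounds equal the table's for all members (the table's end reduced by 1), gave exonic lengths. Replicates are separate mice, numbered in accession order. The labels' protocol speaks of 3 pairs of samples without naming them, so the test ignores any pairing. In simulated counts of this comparison (19005 genes), edgeR found 77% of the genes with a log2 change of 1 and 98% of those with 2, and made 19 false calls. Changes as small as those estimated for the members, at most 0.60 on the log2 scale, were not simulated. The simulation therefore gives no rate of detection for them. The members and lists were chosen with earlier results of these data known. Named genes are all members, list genes that passed (otherwise the 2 of lowest p), Igf1, Igf2, Igf1r, Runx2 and Gli1. For each member with an SD of at least 0.3, the 2 nearest genes of at least 10 CPM are also named. Genes with predicted-gene names (Gm plus digits, Rik) or clone-type names were not candidates.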

Additional observations from a re-analysis of the deposited data

How the results depend on the processing

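The fold changes of Igfbp2, Igfbp3, Igfbp5 and Igfbp7 stayed above 0 in all 15 alternatives, and none of the 7 members passed by edgeR or limma-voom in any of them. DESeq2 called Igfbp2 (0.60), Igfbp5 (0.48) and Igfbp7 (0.34), so that 3 members were called in place of 0, and 2 to 4 when a mouse was left out. Leaving out single mice gave 0.47 to 0.72 for Igfbp2, 0.33 to 0.57 for Igfbp5, 0.25 to 0.57 for Igfbp3 and 0.29 to 0.39 for Igfbp7. It turned the direction of Igfbp4 (-0.12 to 0.062), Igfbp6 (-0.23 to 0.10), Igfals (-0.31 to 0.066), Igf1 (-0.40 to 0.043) and Igf1r (-0.13 to 0.043). The count over all genes was 5. It was 1304 with DESeq2, and by edgeR 72, 8 and 3 without control 2, cKO 3 or control 3 and 0 without control 1, cKO 1 or cKO 2 (3103, 3278 and 2700 genes had an unadjusted p under 0.05). With sex as a covariate edgeR called 0 genes (3073 had an unadjusted p under 0.05), and with the late enamel covariate likewise 0 (1462). In the IGF pathway list the count of 1 became 4 with DESeq2, 0 with either covariate, 2 without control 2 and 0 without any other mouse, and in the IGFBP-domain list the count of 0 became 1 with DESeq2. With coding transcript lengths, 10 of 16 places in the order of levels equalled those reported. The cause of these changes was not tested. Sex sets apart only control 1, which also stood out in skeletal muscle markers. The sex covariate thus largely repeats the fit without this mouse. Where 1 mouse was left out, its group kept 2. No paired analysis was possible because the protocol's pairs of samples are not named and the labels give the mice no shared replicate numbers. Depth left Igfbp1, with at most 4 counts a library, untested.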
